A study of Mus musculus with 16 samples.

Results

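Unsorted mouse muscle cultures grown in a small-molecule medium, called bulk MPC in the labels, were compared across all genes with myoblasts that had been placed in differentiation medium. The comparison uses 6 of the 16 RNA-seq libraries of the series, 3 biological replicates of each culture, chosen by their labels alone. All 6 were Pax7-nGFP cells, which carry a nuclear green fluorescent reporter of Pax7, and came from skeletal muscle of 16 week old males. Bulk MPC had been grown as myoblasts for 2 to 3 passages and then for 5 to 6 passages in a medium with 10% fetal bovine serum, 10% serum replacement, 10 ng/ml basic FGF, 5 µM forskolin, 5 µM RepSox and 3 µM of a compound that the labels name CHIR9901. Forskolin activates adenylyl cyclase, which makes cAMP, and RepSox inhibits the TGF-beta type I receptor. Differentiated myoblasts had spent 3 days in a medium with 2% horse serum and were harvested at passage 4 to 5. The labels do not spell out MPC and do not say what share of either culture was fused or mononuclear. Neither culture was sorted, so medium, culture time, passage and cell makeup differ together between the groups and cannot be told apart.

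Skeletal muscle forms when progenitors that express Pax7 or Myf5 become myoblasts under Myod1, leave the cell cycle under Myog, and fuse into myotubes that assemble sarcomeres. Myotubes start with embryonic, slow and cardiac forms of the contractile proteins and replace them with perinatal and then adult fast or slow forms as fibres mature. Differentiation medium with little serum drives myoblasts through this sequence, whereas cultures that keep progenitors can hold cycling cells beside myotubes.

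Estimated counts summed to 20.2 M to 28.2 M reads in bulk MPC and 19.6 M to 23.3 M reads in differentiated myoblasts, against 19.3 M to 29.1 M reads over all 16 libraries. Levels are given as CPM, the count of a gene scaled to its library total with TMM factors, changes as log2 fold changes of bulk MPC over differentiated myoblasts ± standard error, and a gene passed at an edgeR adjusted p under 0.05. Within bulk MPC, the second replicate differed from the rest. The median, over a list, of its log2 level less the mean of replicates 1 and 3 came to 1.08 for the cell cycle, where 29 of 30 members were highest in it, to 1.85 for basement membrane and collagen genes and to 2.48 for fibroblast markers. For fast sarcomere genes it came to -0.29. Results that rest on that library are given with and without it.

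**Figure D1:**
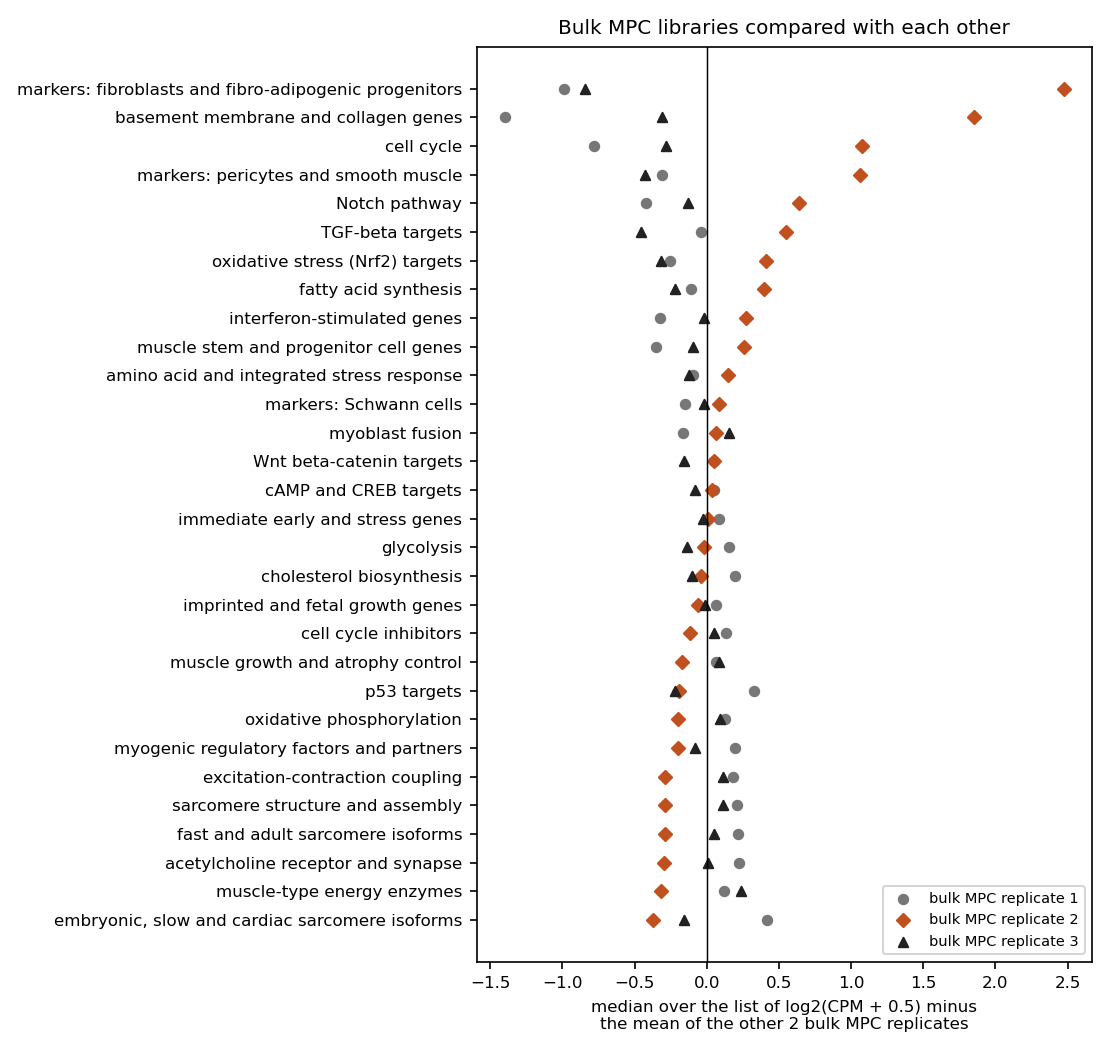
Median, over each gene list with at least 5 tested members, of the log2(CPM + 0.5) of each bulk MPC library minus the mean of the other 2 bulk MPC libraries. Replicate 2 lies far to the right for fibroblast markers (2.48), basement membrane and collagen genes (1.85) and the cell cycle (1.08), and slightly to the left for the contractile lists.

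The cultures differed widely. Of 15533 genes tested, 3793 were higher and 3019 lower in bulk MPC, so that 43.9% passed in either direction, 24.4% as higher and 19.4% as lower. Of these, 1874 were at least 2-fold higher and 1516 at least 2-fold lower. The median log2 fold change over all tested genes was 0.07. Counts on the gene lists below are to be read beside the 24.4% and 19.4% of all genes. Without bulk MPC replicate 2, 5808 genes passed, of which 5485 were among the 6812 that passed with it. Several abundant genes had 95% intervals of their log2 fold change between -0.5 and 0.5, among them the chaperone genes Hspa8 (0.02 ± 0.15) and Hsp90ab1 (0.17 ± 0.11), the ferritin gene Fth1 (0.16 ± 0.13) and Gnas (0.20 ± 0.10), which encodes the G protein that couples receptors to adenylyl cyclase; with length-scaled counts Gnas was lower (-0.29, adjusted p = 0.0316).

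**Figure D2:**
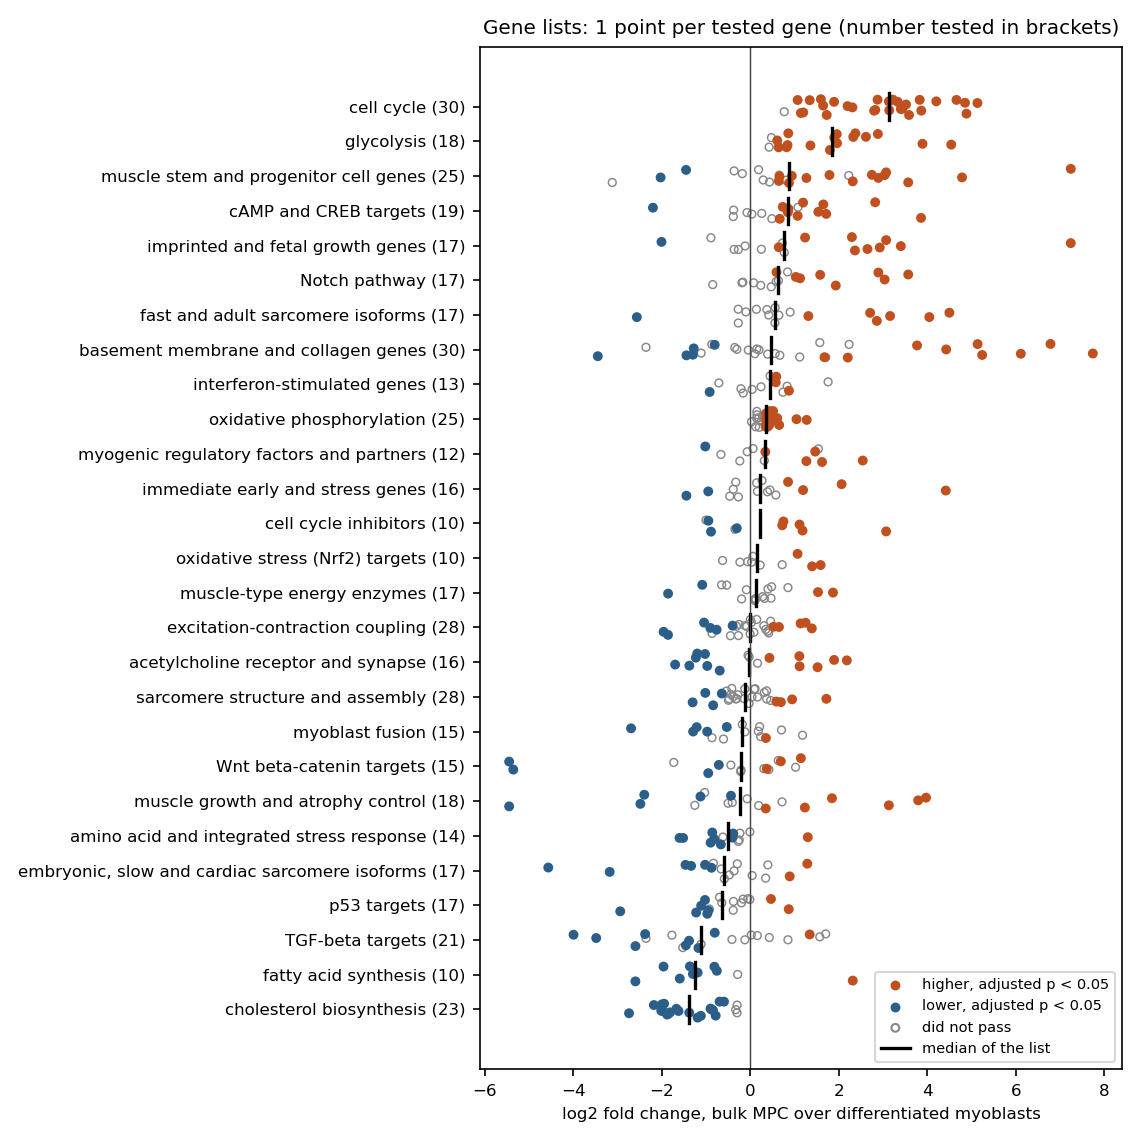
Log2 fold change of bulk MPC over differentiated myoblasts for every tested gene of 27 gene lists, with filled points for genes that passed. The cell cycle (median 3.13) and glycolysis (1.85) lists lie to the right and cholesterol biosynthesis (-1.38) to the left, whereas the medians of the sarcomere structure (-0.13), excitation-contraction coupling (0.00) and muscle energy (0.12) lists lie close to 0.

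Of all lists, the cell cycle list had the largest median difference. The proliferation marker Mki67 had 49.8, 157 and 69.3 CPM in bulk MPC, against 1.08, 3.82 and 3.04 CPM in differentiated myoblasts. Every bulk MPC library lay above every differentiated library, and replicate 2 was the highest. Mki67 was higher by 5.13 ± 0.48, adjusted p = 5.44e-06, and on the cell cycle list 29 of 30 tested members were higher and 0 lower in bulk MPC, with a median log2 fold change of 3.13. This is 96.7% of the list, beside the 24.4% of all genes that were higher. Topoisomerase Top2a (4.85 ± 0.47), the mitotic kinase genes Aurkb (4.88 ± 0.54) and Bub1 (4.66 ± 0.49) and the D-type cyclin gene Ccnd1 (1.14 ± 0.26) were higher, and only the ribonucleotide reductase gene Rrm2 did not pass (0.77 ± 0.31, adjusted p = 0.0622). The replication clamp gene Pcna, at 51.1 ± 16.3 CPM in bulk MPC and 24.4 ± 2.29 CPM in differentiated myoblasts, had a smaller estimate (1.07 ± 0.24). Without bulk MPC replicate 2, the list had 29 higher and 0 lower, median 2.69, and the estimates were 4.51 for Mki67, 4.24 for Top2a, 4.28 for Aurkb and 4.00 for Bub1. Without differentiated replicate 2, Aurkb was at 5.74. In RNA from whole cultures, fewer cycling cells and less of a transcript per cell cannot be told apart.

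Among cell cycle inhibitors, 5 of 10 tested members were higher and 3 lower in bulk MPC, with a median log2 fold change of 0.21. Cdkn1a, which encodes the p21 inhibitor that rises when myoblasts exit the cycle, had 1999, 1512 and 1818 CPM in bulk MPC, against 3427, 3736 and 3122 CPM in differentiated myoblasts. It was lower in every bulk MPC library (-0.95 ± 0.22, adjusted p = 0.00421). Cdkn1c, which encodes the related inhibitor p57 and is imprinted, went the other way, with 947, 919.7 and 972 CPM in bulk MPC, against 111, 104 and 124 CPM in differentiated myoblasts (3.07 ± 0.59, adjusted p = 0.00103). Cdkn1b (0.75 ± 0.21) and Cdkn2d (0.72 ± 0.15) were higher and the retinoblastoma gene Rb1 was lower (-0.89 ± 0.18), while its relative Rbl1, used by cycling cells, was higher (1.18 ± 0.27). Cdkn2b (-1.003 ± 0.43, adjusted p = 0.0768) and Cdkn2c (-0.35 ± 0.27, adjusted p = 0.318) did not pass. Over p53 targets, 2 of 17 tested members were higher in bulk MPC (11.8%, against 24.4% of all genes) and 6 lower (35.3%, against 19.4%). The median log2 fold change was -0.64. With only the 9 unsorted libraries 10 were lower, and 0 were higher without bulk MPC replicate 1 or differentiated replicate 1 or 3. The lower ones included the p53 regulator Mdm2 (-1.22 ± 0.21), the death genes Bbc3 (-1.11 ± 0.24) and Bax (-0.97 ± 0.26, named after its values were seen) and the receptor gene Eda2r (-1.02 ± 0.28), whereas Pmaip1 (0.87 ± 0.26) and Plk2 (0.47 ± 0.15) were higher. In single omissions the call was lost for Plk2 without bulk MPC replicate 1 or 3 or differentiated replicate 1 or 2 or 3 (adjusted p up to 0.122) and Pmaip1 without bulk MPC replicate 1 or 2 or differentiated replicate 1 or 3 (adjusted p up to 0.0601).

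Muscle stem and progenitor genes were more often higher than lower. Pax7, the transcription factor of muscle stem cells, had 66.5, 137 and 57.2 CPM in bulk MPC, against 25.5, 65.1 and 46.0 CPM in differentiated myoblasts. The groups overlapped, because differentiated replicate 2 lay above bulk MPC replicate 3. Pax7 passed narrowly (0.94 ± 0.34, adjusted p = 0.0372) and did not pass without bulk MPC replicate 2 (0.45, adjusted p = 0.252), without differentiated replicate 1 (0.65, adjusted p = 0.139) or 3 (0.94, adjusted p = 0.0859), or with only these 6 libraries in the fit (adjusted p = 0.114). Myf5, the early myogenic factor, had 55.3, 35.8 and 22.1 CPM in bulk MPC, against 18.6, 14.4 and 14.1 CPM in differentiated myoblasts (1.27 ± 0.27, adjusted p = 0.00236), with no overlap. On the whole list 14 of 25 tested members were higher and 2 lower in bulk MPC, with a median log2 fold change of 0.87. Without bulk MPC replicate 2 there were 12 higher and 3 lower, median 0.86. Its largest rises were in Dlk1, an imprinted gene for a Notch-ligand-like surface protein of fetal muscle, at 278 against 1.82 CPM in bulk MPC and differentiated myoblasts (7.24 ± 0.68), in the bHLH repressor gene Msc (4.78 ± 1.02; 4.13 without bulk MPC replicate 2), in the Notch effector gene Hey1 (3.57 ± 0.33) and in Cdkn1c. Cd34 (-2.03 ± 0.65) and Lix1 (-1.45 ± 0.24) were lower, and the call was lost for Cd34 without bulk MPC replicate 1 or 3 or differentiated replicate 2 or 3 (adjusted p up to 0.0787). Itga7, the laminin receptor gene of satellite cells and fibres, did not pass at 2078 ± 200.1 CPM in bulk MPC and 1699 ± 169 CPM in differentiated myoblasts (0.29 ± 0.15, adjusted p = 0.127). Myf5, Dlk1, Cdkn1c, Hey1, Heyl, Notch3 and Peg3 also stand on other lists and are counted in each.

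The Notch pathway keeps muscle progenitors undifferentiated. On its list 8 of 17 tested members were higher in bulk MPC, which is 47.1% against 24.4% of all genes. The list had 0 lower members, against 19.4% of all genes, and a median log2 fold change of 0.63. Without bulk MPC replicate 2 there were 6 higher and 0 lower, median 0.67. The receptor gene Notch3 had 69.4, 210.3 and 93.8 CPM in bulk MPC, against 8.42, 23.0 and 14.3 CPM in differentiated myoblasts (3.03 ± 0.42, adjusted p = 0.000106). Replicate 2 was the highest of bulk MPC, all 3 lay above every differentiated library, and the change without it was 2.42, adjusted p = 0.000184. Among effectors, Heyl (2.89 ± 0.67) and Hey1 were higher, as were Rbpj, the DNA-binding partner of Notch (1.12 ± 0.13), the ligand gene Jag2 (0.59 ± 0.18) and the fringe gene Lfng (1.93 ± 0.71; 1.00 without bulk MPC replicate 2). Without differentiated replicate 3 the list had 5 higher members. The call was lost for Lfng without bulk MPC replicate 2 or differentiated replicate 1 or 2 or 3 (adjusted p up to 0.312) and for Jag2 without bulk MPC replicate 1 or differentiated replicate 2 or 3 (adjusted p up to 0.0682).

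Target genes of cAMP, TGF-beta and Wnt beta-catenin signalling did not all move alike. The part of the added compounds in these values was not tested. Over cAMP and CREB targets, 11 of 19 tested members were higher in bulk MPC (57.9%, against 24.4% of all genes) and 1 lower (5.26%, against 19.4%). The median log2 fold change was 0.85. Phosphodiesterase genes, whose enzymes break down cAMP, were among the higher members. Pde4b had 83.7, 128 and 80.9 CPM in bulk MPC, against 13.3, 15.2 and 12.9 CPM in differentiated myoblasts (2.82 ± 0.19, adjusted p = 5.82e-07), and Pde3a (3.86 ± 0.66) and Pde7b (1.65 ± 0.40) were higher too. The nuclear receptor gene Nr4a1 (1.71 ± 0.38), the kinase gene Sik1 (0.66 ± 0.14), the phosphatase gene Dusp1 (0.85 ± 0.25) and Fos (1.19 ± 0.34) were higher, while Ppargc1a, the coactivator gene of mitochondrial biogenesis, was lower (-2.20 ± 0.46). The call was lost for Dusp1 without bulk MPC replicate 1 or differentiated replicate 1 (adjusted p up to 0.0692). Pde3a was at 2.98 without bulk MPC replicate 2 and at 4.50 without differentiated replicate 1, and Ppargc1a at -2.85 without bulk MPC replicate 3.

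Over TGF-beta targets, 1 of 21 tested members was higher in bulk MPC (4.76%, against 24.4% of all genes) and 8 lower (38.1%, against 19.4%). The median log2 fold change was -1.11, and without bulk MPC replicate 2 there were 0 higher and 11 lower, median -2.01. The matricellular gene Thbs1 had 6.45, 17.8 and 10.5 CPM in bulk MPC, against 125, 193 and 236 CPM in differentiated myoblasts (-3.99 ± 0.49, adjusted p = 3.66e-05). Smooth muscle actin Acta2 had 147, 209.7 and 168 CPM in bulk MPC, against 845, 879.8 and 1002 CPM in differentiated myoblasts (-2.38 ± 0.38, adjusted p = 0.000273). Ccn2 (-3.48 ± 0.42) and Pmepa1 (-2.60 ± 0.23), a feedback inhibitor of the pathway, were lower as well, and in all 4 of these genes the groups did not overlap. Over all tested genes, the groups did not overlap in 59.6%. Bhlhe40 was the one member that was higher (1.34 ± 0.44), a call lost without bulk MPC replicate 2 or differentiated replicate 1 or 2 or 3 (adjusted p up to 0.0758), and the ligand gene Tgfb3 did not pass (0.16 ± 0.16, adjusted p = 0.447).

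Over Wnt beta-catenin targets, 3 of 15 tested members were higher in bulk MPC (20%, against 24.4% of all genes). Another 4 were lower (26.7%, against 19.4%), shares near those of all genes, and the median log2 fold change was -0.21. That median has no stable sign, since it was 0.32 without bulk MPC replicate 1, -0.73 without 2, 0.25 without 3, -0.36 without differentiated replicate 1, 0.12 without 2 and 0.34 without 3. Axin2, the feedback gene most often read as a measure of the pathway, had 17.1, 17.1 and 15.9 CPM in bulk MPC, against 26.0, 23.6 and 32.6 CPM in differentiated myoblasts. It lay lower in every bulk MPC library but passed only just (-0.71 ± 0.27, adjusted p = 0.0496) and did not pass with any 1 library left out (adjusted p from 0.0604 to 0.171) or with replicate number as a block (-0.68, adjusted p = 0.0501). The secreted Wnt inhibitor gene Wif1 (-5.36 ± 0.58) and the transcription factor gene Tcf7 (-0.95 ± 0.24) were lower, and Cd44 was higher (0.69 ± 0.19). The call was lost for Cd44 without differentiated replicate 1 (adjusted p up to 0.0562). Follistatin (Fst), listed here as a Wnt target of muscle and known for binding myostatin and activins, had 8.28, 6.62 and 8.57 CPM in bulk MPC, against 405, 261 and 359 CPM in differentiated myoblasts (-5.45 ± 0.26, adjusted p = 3.59e-08). Its ligand myostatin (Mstn), which limits muscle growth, had 269, 113 and 199.9 CPM in bulk MPC, against 21.5, 9.05 and 11.4 CPM in differentiated myoblasts (3.79 ± 0.41, adjusted p = 1.42e-05). Neither gene overlapped between the groups.

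The myogenic factors split. Myog, which drives terminal differentiation, had 955, 838 and 1066 CPM in bulk MPC, against 979, 988 and 1034 CPM in differentiated myoblasts. The libraries of both cultures were interleaved (-0.07 ± 0.42, adjusted p = 0.909). The 95% interval of the log2 fold change was -0.98 to 0.84, so the fit does not exclude a change of nearly 2-fold in either direction. Its spread was estimated over 15 libraries of 5 groups, sorted ones included, and is not that of these 6 libraries alone. Myod1 had 180.3, 148 and 158 CPM in bulk MPC, against 356, 332 and 299 CPM in differentiated myoblasts (-1.02 ± 0.27, adjusted p = 0.00812). Myf6, the factor of maturing fibres, had 273, 175 and 164 CPM in bulk MPC, against 39.6, 31.4 and 34.1 CPM in differentiated myoblasts (2.54 ± 0.38, adjusted p = 0.000177). Bulk MPC thus held less Myod1 and more Myf6 in every library. The transcription cofactor gene Eya1 was higher (1.62 ± 0.20), and the Mef2 family member of highest TPM, Mef2c, was at 1217 against 1929 CPM in bulk MPC and differentiated myoblasts and did not pass (-0.66 ± 0.26, adjusted p = 0.0553). Of the list as a whole, 5 of 12 tested members were higher and 1 lower in bulk MPC, with a median log2 fold change of 0.33.

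**Figure D3:**
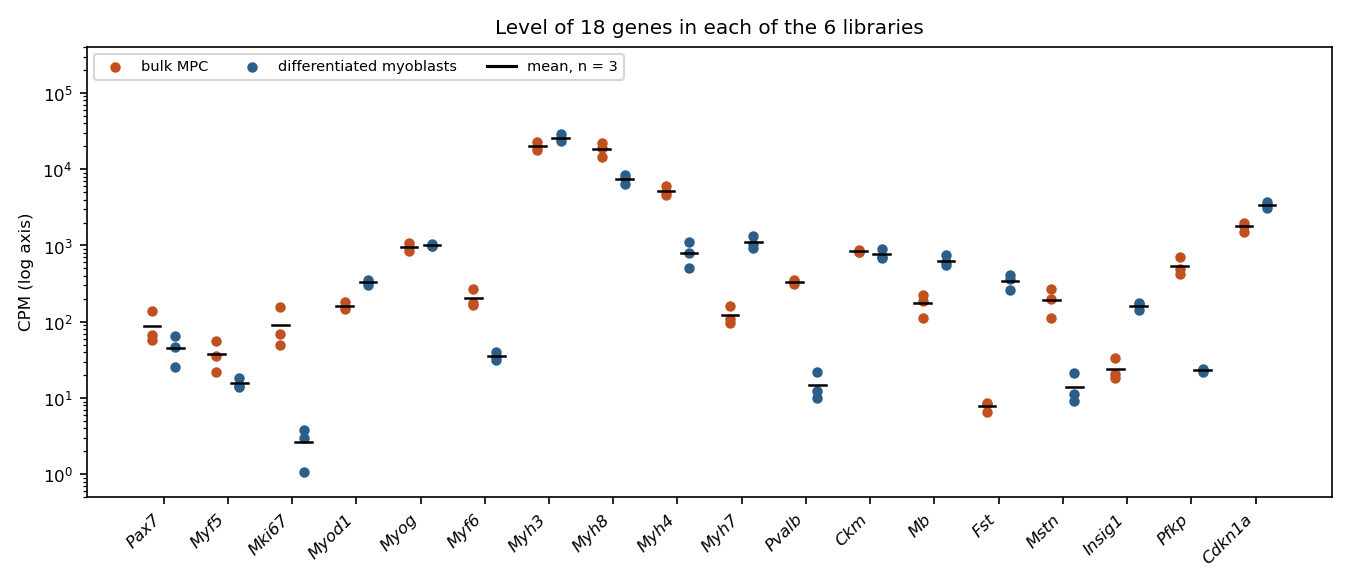
CPM of 18 genes in each library on a log axis, with bulk MPC left of differentiated myoblasts and a bar at the mean of 3. Myog and Ckm overlap between the cultures, Mki67, Myf6, Myh4, Pvalb, Mstn and Pfkp are higher in every bulk MPC library, and Myod1, Myh7, Mb, Fst, Insig1 and Cdkn1a are lower in every one, as is Myh3, which did not pass.

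Both cultures were rich in sarcomere transcripts, and how many genes of the sarcomere's core passed depended on the libraries in the fit. Over sarcomere structure and assembly genes, 4 of 28 tested members were higher and 4 lower in bulk MPC, with a median log2 fold change of -0.13, so that 20 of 28 did not pass, while 56.1% of all genes did not. With only these 6 libraries in the fit, 5 were higher and 11 lower, so that 16 of 28 passed. Desmin (Des), the intermediate filament of muscle, had 7159.9, 5997 and 6001 CPM in bulk MPC, against 5057, 5589 and 4744 CPM in differentiated myoblasts and did not pass (0.32 ± 0.19, adjusted p = 0.199). Skeletal actin (Acta1) had 18682, 13025 and 15198 CPM in bulk MPC, against 12357, 11969 and 11861 CPM in differentiated myoblasts and did not pass either (0.37 ± 0.27, adjusted p = 0.274). The crosslinker gene Actn2 did not pass (0.46 ± 0.25, adjusted p = 0.15; interval -0.07 to 0.99). Of the exceptions, Myot (1.72 ± 0.46), Nrap (0.69 ± 0.24) and Synm (0.94 ± 0.28) were higher, and the titin cap gene Tcap (-1.30 ± 0.23) and Mybph (-1.02 ± 0.25) were lower. The call was lost for Nrap without bulk MPC replicate 1 or 3 or differentiated replicate 1 or 2 or 3 (adjusted p up to 0.0996) and Synm without differentiated replicate 1 (adjusted p up to 0.0698), and with a single library left out 1 to 4 members were higher, the fewest without differentiated replicate 1.

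On the list of embryonic, slow and cardiac isoforms, 2 of 17 tested members were higher and 6 lower in bulk MPC, with a median log2 fold change of -0.59, and on that of fast and adult isoforms, 6 of 17 tested members were higher and 1 lower in bulk MPC, with a median log2 fold change of 0.56. The share called in either direction was close to the 43.9% of all genes on both lists. Of the embryonic, slow and cardiac list, 0 members were higher without bulk MPC replicate 1 or differentiated replicate 2 or 3. Myh3, the embryonic myosin heavy chain, had 22878, 17725 and 19636 CPM in bulk MPC, against 28999, 23219 and 25536 CPM in differentiated myoblasts and did not pass (-0.37 ± 0.28, adjusted p = 0.314), although every bulk MPC library lay below every differentiated library. Myh8, the perinatal chain, had 21851, 14269.5 and 18822 CPM in bulk MPC, against 8377, 7709 and 6426 CPM in differentiated myoblasts (1.29 ± 0.41, adjusted p = 0.0212). Myh4, the chain of adult fast glycolytic fibres, had 4965, 4654 and 6074 CPM in bulk MPC, against 788, 1113 and 503 CPM in differentiated myoblasts (2.71 ± 0.69, adjusted p = 0.00627). Myh8 and Myh4 were higher in every bulk MPC library, while Myh8 did not pass without bulk MPC replicate 1 or differentiated replicate 2 or 3 (adjusted p up to 0.0744). By contrast, Myh7, the slow and cardiac chain, had 160.3, 95.2 and 108 CPM in bulk MPC, against 1330.2, 1037 and 927 CPM in differentiated myoblasts (-3.18 ± 0.33, adjusted p = 1.17e-05). Myh2, the chain of fast oxidative fibres, was the 1 member of the fast list that was called lower, at 33.8 ± 12.7 CPM in bulk MPC and 199.8 ± 166 CPM in differentiated myoblasts (-2.56 ± 0.60, adjusted p = 0.00379, and -1.64 without differentiated replicate 3). The fast light chain gene Mylpf had 6040, 4812 and 5436 CPM in bulk MPC, against 6647, 6691 and 6345 CPM in differentiated myoblasts. Fast troponin T (Tnnt3) had 2575, 2308 and 2597 CPM in bulk MPC, against 3130, 3196 and 2720 CPM in differentiated myoblasts. Both lay lower in every bulk MPC library but did not pass.

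The largest rises on the fast list were in genes other than the myosins. The TPM of the whole fast list summed to 60058 to 68322 in bulk MPC and 64788 to 71410 in differentiated myoblasts, so the groups overlapped. Parvalbumin (Pvalb), the calcium buffer of fast fibres, had 352, 339 and 312 CPM in bulk MPC, against 12.5, 21.9 and 10.0 CPM in differentiated myoblasts (4.50 ± 0.54, adjusted p = 3.31e-05). The pointed-end capping gene Tmod4 had 131, 131 and 152 CPM in bulk MPC, against 7.49, 9.10 and 8.43 CPM in differentiated myoblasts (4.04 ± 0.53, adjusted p = 6.53e-05). The Z-disc gene Myoz1 had 609, 468 and 535 CPM in bulk MPC, against 55.6, 68.8 and 56.2 CPM in differentiated myoblasts (3.16 ± 0.54, adjusted p = 0.000484). In these genes the lowest bulk MPC library lay far above the highest differentiated library, and fast myosin-binding protein C (Mybpc2, 2.86 ± 0.44) moved the same way. On the slow and cardiac side, the ventricular light chain gene Myl2 (-4.57 ± 0.43), Myl6b (-1.47 ± 0.37), slow troponin C (Tnnc1, -1.34 ± 0.34) and cardiac troponin T (Tnnt2, -0.88 ± 0.33) were lower, and slow myosin-binding protein C (Mybpc1, 0.89 ± 0.34) was higher. With replicate number as a block, Mybpc1 (0.89, adjusted p = 0.0568) and Tnnt2 (-0.87, adjusted p = 0.0624) did not pass. The calls least secure were those of Mybpc1 with any 1 library left out (adjusted p up to 0.134) and Tnnt2 with any 1 library left out (adjusted p up to 0.115).

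Shares within isoform families put these changes on a scale free of library depth. Each share is the TPM of the named members as a percentage of the family's summed TPM, and TPM takes transcript length into account. In all 19 shares the 3 bulk MPC libraries lay outside the range of the 3 differentiated libraries, against 59.6% of single genes with no such overlap. The myosin heavy chain shares divide the same family and so depend on each other. With 3 libraries against 3 the exact two-sided permutation test cannot go below p = 0.10, which was the p, raw and adjusted, of all 19. The embryonic share of myosin heavy chain TPM was 34.6, 37.4 and 30.8% in bulk MPC, against 55.7, 54.0 and 62.1% in differentiated myoblasts. The perinatal share was 33.4, 30.5 and 29.9% in bulk MPC, against 15.9, 17.8 and 15.5% in differentiated myoblasts. Adult fast chains together made 31.5, 31.7 and 38.9% in bulk MPC, against 24.5, 24.7 and 18.96% in differentiated myoblasts. Of these chains, Myh1 had the highest CPM, and its level overlapped between the groups. It had 14856, 9721 and 17556 CPM in bulk MPC, against 11382, 8957 and 6601 CPM in differentiated myoblasts. Differentiated myoblasts thus gave over 50% of this pool to the embryonic chain, and in bulk MPC no class reached 40%. Slow and cardiac chains made 0.435% ± 0.0677 in bulk MPC and 3.55% ± 0.240 in differentiated myoblasts (SD, n = 3 each).

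The troponins showed the same order. Of troponin C, the fast form made 67.8, 74.3 and 77.5% in bulk MPC, against 47.9, 51.3 and 46.9% in differentiated myoblasts. Fast troponin I made 47.1% ± 2.36 in bulk MPC and 29.8% ± 2.81 in differentiated myoblasts, and fast troponin T made 61.9% ± 4.15 in bulk MPC and 53.3% ± 1.09 in differentiated myoblasts. A larger share was not always a higher level. Fast troponin I (Tnni2) was higher in every bulk MPC library and Tnnt3 lower in every one. Fast troponin C (Tnnc2) overlapped, with 2575, 2003 and 2338 CPM in bulk MPC, against 2226, 2236 and 1828 CPM in differentiated myoblasts. Of the essential light chains, the fast form made 75.3% ± 0.811 in bulk MPC and 55.9% ± 1.09 in differentiated myoblasts. The skeletal share of striated actin was 70.9% ± 1.03 in bulk MPC and 65.7% ± 1.07 in differentiated myoblasts. The muscle form of creatine kinase, which buffers ATP in fibres, made 93.8% ± 0.726 in bulk MPC and 80.0% ± 3.45 in differentiated myoblasts, although Ckm itself did not differ past the threshold at 836 ± 31.6 CPM in bulk MPC and 769.6 ± 119.8 CPM in differentiated myoblasts (0.12 ± 0.44, adjusted p = 0.843).

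**Figure D4:**
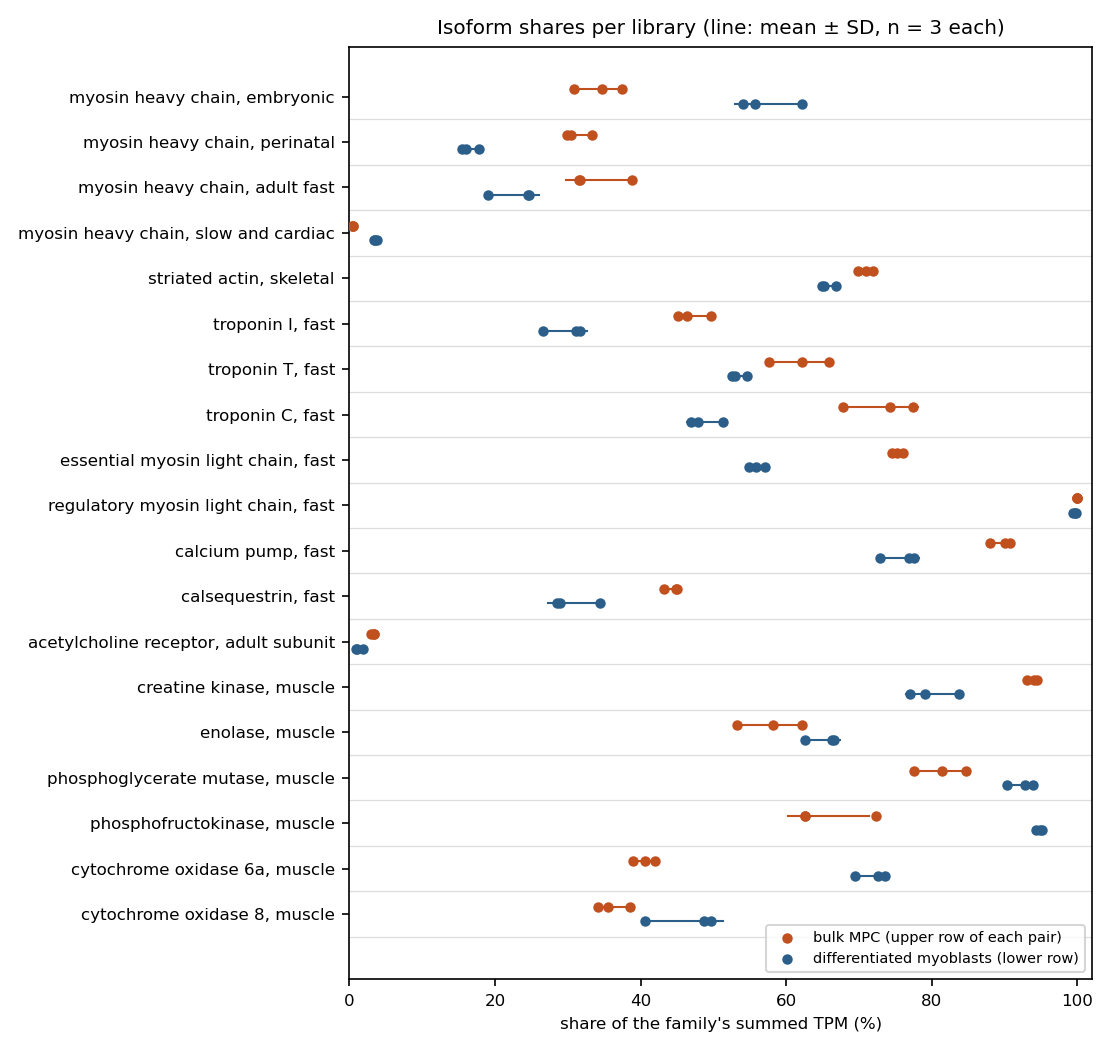
The 19 shares of a family's summed TPM, with the myosin heavy chain family divided into several of them. Points are libraries and lines the mean ± SD of 3, bulk MPC above differentiated myoblasts in each pair. The fast contractile, calcium pump, calsequestrin and creatine kinase shares lie further right in bulk MPC, and the embryonic myosin, enolase, phosphoglycerate mutase, phosphofructokinase and cytochrome oxidase shares lie further left.

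Excitation-contraction coupling genes were balanced. In bulk MPC, 5 of 28 tested members were higher (17.9%, against 24.4% of all genes) and 6 lower (21.4%, against 19.4%). The median log2 fold change was 0.00, and 10 were lower with only these 6 libraries in the fit. The fast calcium pump gene Atp2a1 had 7991, 7044 and 8645 CPM in bulk MPC, against 6329, 6849 and 4863 CPM in differentiated myoblasts and did not pass (0.39 ± 0.45, adjusted p = 0.514), but the slow and cardiac pump gene Atp2a2 had 1574, 1112 and 1289 CPM in bulk MPC, against 2762, 2862 and 2585 CPM in differentiated myoblasts (-1.05 ± 0.14, adjusted p = 9.18e-05). Of the pump TPM, Atp2a1 made 89.6% ± 1.46 in bulk MPC and 75.8% ± 2.50 in differentiated myoblasts. Other genes of slow or cardiac pump control were lower, sarcolipin (Sln, -1.96 ± 0.47) and phospholamban (Pln, -1.86 ± 0.63; -2.61 without bulk MPC replicate 3), as was the calcium channel subunit gene Cacnb1 (-0.90 ± 0.22). Fast calsequestrin (Casq1, 1.14 ± 0.37), the sodium channel gene of adult muscle (Scn4a, 1.25 ± 0.31) and the ryanodine receptor gene Ryr3 (1.39 ± 0.48) were higher. The call was lost for Casq1 without bulk MPC replicate 1 or 3 or differentiated replicate 2 or 3 (adjusted p up to 0.087), Pln without bulk MPC replicate 1 or 2 or differentiated replicate 1 or 2 or 3 (adjusted p up to 0.0899) and Ryr3 without bulk MPC replicate 1 or 3 or differentiated replicate 1 or 2 or 3 (adjusted p up to 0.101), and the fewest members were higher, 2, without bulk MPC replicate 1 or differentiated replicate 3. Cardiac calsequestrin (Casq2) did not pass (0.30 ± 0.21, adjusted p = 0.257).

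Among acetylcholine receptor and synapse genes, 6 of 16 tested members were higher and 7 lower in bulk MPC, with a median log2 fold change of -0.04, so that 3 of 16 did not pass. The adult receptor subunit gene Chrne had 24.3, 17.6 and 19.8 CPM in bulk MPC, against 5.96, 10.7 and 4.83 CPM in differentiated myoblasts (1.52 ± 0.48, adjusted p = 0.0209), whereas the fetal subunit gene Chrng did not pass at 1019.5 ± 123 CPM in bulk MPC and 911 ± 142 CPM in differentiated myoblasts (0.16 ± 0.24, adjusted p = 0.614). Acetylcholinesterase (Ache) had 563, 429 and 419.6 CPM in bulk MPC, against 116, 111 and 85.0 CPM in differentiated myoblasts (2.18 ± 0.33, adjusted p = 0.00018). The groups did not overlap in Chrne or Ache, though the call was lost for Chrne without bulk MPC replicate 1 or differentiated replicate 1 or 3 (adjusted p up to 0.0889). The transcription factor gene Etv5 was higher too (1.89 ± 0.20). The agrin receptor gene Lrp4 had 139.8, 106 and 133 CPM in bulk MPC, against 337, 253 and 281 CPM in differentiated myoblasts (-1.20 ± 0.17, adjusted p = 0.000102), and the receptor anchor gene Rapsn (-1.38 ± 0.21), the receptor subunit gene Chrna1 (-1.02 ± 0.23) and the neuregulin receptor genes Erbb2 (-1.70 ± 0.20) and Erbb3 (-1.23 ± 0.23) were lower. The kinase gene Musk (-0.05 ± 0.27, adjusted p = 0.895) and utrophin (Utrn, -0.03 ± 0.13, adjusted p = 0.882) did not pass.

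Of fusion genes, 1 of 15 tested members was higher and 5 lower in bulk MPC, with a median log2 fold change of -0.18. Myomaker (Mymk), the membrane protein that myoblasts need for fusion, had 744, 633 and 785 CPM in bulk MPC, against 1678, 1766 and 1567 CPM in differentiated myoblasts (-1.21 ± 0.27, adjusted p = 0.00285). The adhesion gene Jam2 had 40.3, 32.5 and 55.0 CPM in bulk MPC, against 271, 254 and 302 CPM in differentiated myoblasts (-2.70 ± 0.28, adjusted p = 1.18e-05). Both were lower in every bulk MPC library, and Jam3 (-0.97 ± 0.25) and myoferlin (Myof, -1.29 ± 0.17) were lower as well. The receptor gene Neo1 was the single member that was higher (0.35 ± 0.12), a call lost without bulk MPC replicate 2 or 3 or differentiated replicate 1 or 3 (adjusted p up to 0.126), and the caveolin gene Cav3 did not pass (-0.87 ± 0.35, adjusted p = 0.0598).

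Energy metabolism differed by branch. Of muscle-type energy enzymes, 2 of 17 tested members were higher and 2 lower in bulk MPC, with a median log2 fold change of 0.12 (5 higher and 4 lower with only these 6 libraries in the fit, 4 and 2 with the 9 unsorted ones), and the muscle enolase gene Eno3 did not pass (0.32 ± 0.20, adjusted p = 0.218). Myoglobin (Mb), the oxygen store of oxidative fibres, had 227, 111 and 187 CPM in bulk MPC, against 744, 603 and 559 CPM in differentiated myoblasts (-1.86 ± 0.35, adjusted p = 0.000869), and the fatty acid binding protein gene Fabp3 was lower (-1.09 ± 0.27). Mitochondrial creatine kinase (Ckmt2) had 296, 194 and 295 CPM in bulk MPC, against 75.4, 89.3 and 50.4 CPM in differentiated myoblasts (1.87 ± 0.47, adjusted p = 0.00618), and AMP deaminase of fast fibres (Ampd1, 1.53 ± 0.31) was higher too. On the oxidative phosphorylation list, 16 of 25 tested members were higher in bulk MPC (64%, against 24.4% of all genes) and 0 lower (against 19.4%). The median log2 fold change was 0.36, so that the changes were many and small. Cytochrome c (Cycs, 1.04 ± 0.25), Cox6a1 (1.27 ± 0.13), Ndufb8 (0.65 ± 0.11) and Cyc1 (0.61 ± 0.13) had the largest, and Atp5b, of highest TPM, did not pass (0.25 ± 0.15, adjusted p = 0.19). Without differentiated replicate 3, 9 of the list's members were higher.

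Glycolysis had the largest median of the metabolic lists. On its list, 16 of 18 tested members were higher and 0 lower in bulk MPC, with a median log2 fold change of 1.85, which is 88.9% of the list against 24.4% of all genes. The phosphofructokinase gene Pfkp, a rate-controlling step, had 699, 489.8 and 423 CPM in bulk MPC, against 24.2, 23.4 and 21.8 CPM in differentiated myoblasts (4.54 ± 0.20, adjusted p = 2.38e-08). Pfkfb3, whose product makes the activator of that step, had 101, 119 and 98.9 CPM in bulk MPC, against 8.72, 5.90 and 6.86 CPM in differentiated myoblasts (3.89 ± 0.26, adjusted p = 4.6e-07). In both genes every bulk MPC library lay far above every differentiated library, though the bulk MPC libraries were spread in Pfkp, with replicate 1 the highest. The lactate exporter gene Slc16a3 had 201, 238 and 222 CPM in bulk MPC, against 40.2, 26.4 and 41.4 CPM in differentiated myoblasts (2.61 ± 0.48, adjusted p = 0.000761), and aldolase C (Aldoc, 2.88 ± 0.41) was higher too. The members of highest TPM had smaller estimates, Gapdh with 10192 ± 956 CPM in bulk MPC and 5775 ± 624 CPM in differentiated myoblasts (0.82 ± 0.18, adjusted p = 0.0022) and aldolase A (Aldoa) with 0.61 ± 0.16. The hexokinase gene Hk1 (0.42 ± 0.21, adjusted p = 0.124) and the lactate dehydrogenase gene Ldhb (0.48 ± 0.42, adjusted p = 0.377) did not pass.

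In contrast to creatine kinase, the muscle share of glycolytic enzymes and of cytochrome oxidase was smaller in every bulk MPC library. Of phosphofructokinase, the muscle form Pfkm made 62.6, 62.6 and 72.3% in bulk MPC, against 94.2, 95.2 and 94.8% in differentiated myoblasts. Its own level did not differ past the threshold (0.10 ± 0.27, adjusted p = 0.782), while Pfkl (2.33 ± 0.24) and Pfkp were higher. Muscle phosphoglycerate mutase (Pgam2) made 81.2% ± 3.59 in bulk MPC and 92.3% ± 1.86 in differentiated myoblasts, with Pgam2 at 0.47 ± 0.41 (adjusted p = 0.381) and Pgam1 higher (1.96 ± 0.15). Muscle enolase made 57.8% ± 4.53 in bulk MPC and 65.2% ± 2.24 in differentiated myoblasts, with Eno1 higher (0.84 ± 0.15). For the cytochrome oxidase subunit 6a the muscle form Cox6a2 made 40.5% ± 1.51 in bulk MPC and 71.9% ± 2.14 in differentiated myoblasts. Cox6a2 itself did not pass (-0.65 ± 0.39, adjusted p = 0.2).

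Promoter letters are shown for genes of the glycolysis list because many of its members rose together. The window is the 250 bases before the start of a gene in the RefSeq promoter table (GRCm38.p6), read 5′ to 3′ on the gene's strand in lower case, with each copy of ACGTG or its reverse complement CACGT, the core letters of the hypoxia response element, in capitals. Copies on both strands overlap in CACGTG. Ldha, the lactate dehydrogenase gene, had 3207, 2848 and 3110.4 CPM in bulk MPC, against 1269, 1275 and 1031 CPM in differentiated myoblasts (1.36 ± 0.13, adjusted p = 7.64e-06), and the phosphoglycerate kinase gene Pgk1 had 2506, 2101 and 2165 CPM in bulk MPC, against 647, 628 and 545 CPM in differentiated myoblasts (1.90 ± 0.14, adjusted p = 8.85e-07). Both genes were chosen for display after their values were seen.
Ldha, chr7:46845554-46845803, plus strand: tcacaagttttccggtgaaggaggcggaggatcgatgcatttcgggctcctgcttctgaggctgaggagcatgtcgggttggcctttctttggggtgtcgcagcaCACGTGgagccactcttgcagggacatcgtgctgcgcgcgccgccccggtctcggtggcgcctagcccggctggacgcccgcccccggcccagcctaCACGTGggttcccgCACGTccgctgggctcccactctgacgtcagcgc
Pgk1, chrX:106186850-106187099, plus strand: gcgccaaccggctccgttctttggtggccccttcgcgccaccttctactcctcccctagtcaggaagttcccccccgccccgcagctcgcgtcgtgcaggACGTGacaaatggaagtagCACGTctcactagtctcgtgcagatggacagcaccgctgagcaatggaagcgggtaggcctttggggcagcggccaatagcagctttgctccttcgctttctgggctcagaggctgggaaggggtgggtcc
All 18 members of the glycolysis list had an entry, and 9 of them (50%) held the letters in at least 1 of their windows, against 18.5% of the 27025 genes in the table. The window of Pfkp, the member with the largest change, held no copy. Genes with several start sites had several windows and so more chances of a match. A match describes letters and was not tested for binding.

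Sterol synthesis went the other way. On the cholesterol biosynthesis list, 0 of 23 tested members were higher and 20 lower in bulk MPC, with a median log2 fold change of -1.38, so that 87.0% were lower against 19.4% of all genes. Insig1, the sterol-sensing regulator that is itself a target of the pathway's transcription factor, had 33.8, 20.5 and 18.2 CPM in bulk MPC, against 174, 169 and 143 CPM in differentiated myoblasts (-2.74 ± 0.23, adjusted p = 2.83e-06). The lanosterol demethylase gene Cyp51 had 33.8, 30.3 and 24.7 CPM in bulk MPC, against 142, 134 and 127 CPM in differentiated myoblasts (-2.18 ± 0.14, adjusted p = 3.94e-07). The bulk MPC libraries of both genes lay far below every differentiated library. Idi1 (-2.01 ± 0.19), Nsdhl (-1.997 ± 0.17), Fdps (-1.95 ± 0.19) and Dhcr7 (-1.98 ± 0.22), all enzymes of the route, were lower as well. The 3 members that did not pass were Srebf2, the transcription factor gene of the route (-0.30 ± 0.12, adjusted p = 0.0558), Hsd17b7 (-0.30 ± 0.13, adjusted p = 0.0852) and the sterol transfer gene Stard4 (-0.33 ± 0.26, adjusted p = 0.329). The serum of the media differed between the cultures, and its part in these values was not tested.

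**Figure D5:**
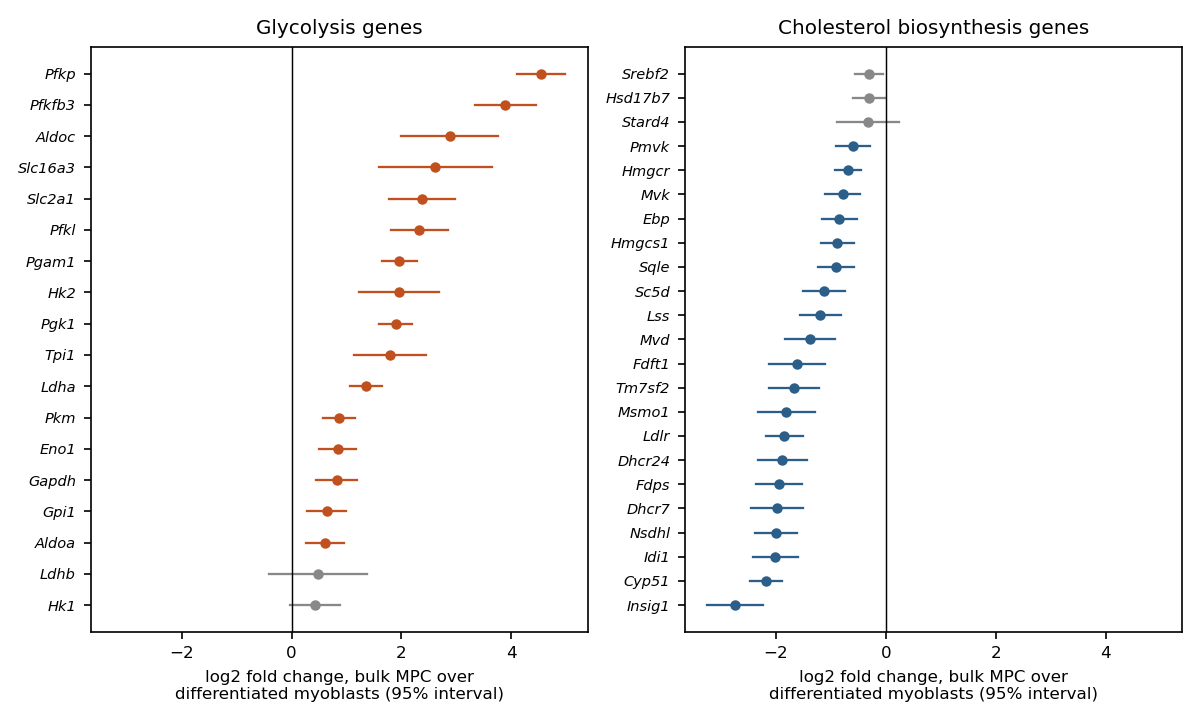
Log2 fold change of bulk MPC over differentiated myoblasts with its 95% interval for 18 glycolysis genes (left) and 23 cholesterol biosynthesis genes (right), grey where the gene did not pass. All 18 glycolysis estimates are above 0, up to 4.54 for Pfkp, and all 23 cholesterol estimates are below 0, down to -2.74 for Insig1.

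Windows of 2 sterol genes are shown with copies of TCACNCCAC, a form of the sterol response element, or its reverse complement in capitals. Hmgcs1, which encodes the synthase at the head of the route and was chosen after its values were seen, had 99.7, 83.6 and 91.4 CPM in bulk MPC, against 185, 168 and 154 CPM in differentiated myoblasts (-0.88 ± 0.14, adjusted p = 0.000276).
Hmgcs1, chr13:119690101-119690350, plus strand: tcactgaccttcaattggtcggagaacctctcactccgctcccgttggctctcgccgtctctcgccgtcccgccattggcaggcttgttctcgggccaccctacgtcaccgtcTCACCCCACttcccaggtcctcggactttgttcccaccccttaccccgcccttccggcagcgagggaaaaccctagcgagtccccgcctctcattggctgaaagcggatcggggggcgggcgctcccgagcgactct
Insig1, chr5:28071162-28071411, plus strand: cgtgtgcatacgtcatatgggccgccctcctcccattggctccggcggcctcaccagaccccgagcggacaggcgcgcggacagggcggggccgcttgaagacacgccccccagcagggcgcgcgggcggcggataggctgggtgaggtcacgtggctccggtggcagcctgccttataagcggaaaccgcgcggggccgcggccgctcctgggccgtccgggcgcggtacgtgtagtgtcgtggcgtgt
The Hmgcs1 window held a single copy, 137 bases before the start. Of 16 list members with an entry it was the only match (6.25%), against 1.22% of all genes in the table, and the window of Insig1 held none.

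Fatty acid synthesis followed the sterol genes, and 1 of 10 tested members was higher and 8 lower in bulk MPC, with a median log2 fold change of -1.24. The desaturase gene Scd2 had 1049.5, 1005 and 621 CPM in bulk MPC, against 2661, 2933 and 2484 CPM in differentiated myoblasts (-1.59 ± 0.20, adjusted p = 4.97e-05), and Srebf1, the transcription factor gene of lipid synthesis, had 51.0, 54.1 and 48.0 CPM in bulk MPC, against 215, 206 and 176 CPM in differentiated myoblasts (-1.96 ± 0.09, adjusted p = 3.59e-08). Both were lower in every bulk MPC library, as were Fads2 (-2.60 ± 0.33; -3.30 without bulk MPC replicate 2) and Scd1 (-1.30 ± 0.31). Fatty acid synthase (Fasn) was lower (-1.37 ± 0.19), the elongase gene Elovl6 was higher (2.31 ± 0.24), and Fads1 did not pass (-0.29 ± 0.27, adjusted p = 0.418).

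Growth control and imprinted genes held some of the widest differences. On the muscle growth and atrophy list, 6 of 18 tested members were higher in bulk MPC (33.3%, against 24.4% of all genes). Another 5 were lower (27.8%, against 19.4%), with a median log2 fold change of -0.24. With only these 6 or the 9 unsorted libraries in the fit, 8 were lower. Beside Mstn and Fst, the ubiquitin ligase gene Fbxo40, which limits IGF signalling in muscle, was lower (-2.48 ± 0.50), and the IGF-binding protein genes Igfbp4 (3.97 ± 0.95; 2.93 without bulk MPC replicate 2) and Igfbp2 (3.13 ± 0.46) were higher. Igfbp5, the member of highest TPM, was also higher (1.23 ± 0.34). Over imprinted and fetal growth genes, 9 of 17 tested members were higher and 1 lower in bulk MPC, with a median log2 fold change of 0.77. Grb10, an imprinted brake on insulin and IGF receptors, had 1727, 1620.2 and 2084 CPM in bulk MPC, against 125, 129.9 and 259 CPM in differentiated myoblasts (3.40 ± 0.40, adjusted p = 2.78e-05). Dlk1 had 389.8, 276 and 167 CPM in bulk MPC, against 2.31, 0.112 and 3.04 CPM in differentiated myoblasts, and the noncoding RNA Meg3 of the same imprinted locus had 3976, 3322 and 3044 CPM in bulk MPC, against 285, 71.8 and 1006 CPM in differentiated myoblasts (2.92 ± 0.81, adjusted p = 0.0108; 4.27 without differentiated replicate 3). Differentiated replicate 2 was the lowest and replicate 3 the highest of its group in both genes of that locus. H19, a noncoding RNA of fetal tissue with 18928 ± 1982 CPM in bulk MPC and 20533 ± 1978 CPM in differentiated myoblasts, did not pass (-0.12 ± 0.19, adjusted p = 0.646). The growth factor gene Igf2 had 9624, 9121 and 9311 CPM in bulk MPC, against 5469, 4900.2 and 6116 CPM in differentiated myoblasts without overlap but did not pass either (0.77 ± 0.43, adjusted p = 0.17), and Hmga2, a chromatin gene of proliferating progenitors, was lower (-2.01 ± 0.45; -2.71 without bulk MPC replicate 2).

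Over amino acid and integrated stress response genes, 1 of 14 tested members was higher and 8 lower in bulk MPC, with a median log2 fold change of -0.51. The transcription factor genes Atf5 (-1.60 ± 0.14) and Ddit3 (-0.86 ± 0.19) and the glutathione-degrading enzyme gene Chac1 (-1.52 ± 0.24) were lower, Atf4 was lower by a small step (-0.39 ± 0.08), and the mitochondrial serine enzyme gene Shmt2 was higher (1.30 ± 0.21). Without bulk MPC replicate 3, 5 members were lower. Over oxidative stress targets, 3 of 10 tested members were higher and 0 lower in bulk MPC, with a median log2 fold change of 0.14 (-0.01 without bulk MPC replicate 2), with heme oxygenase (Hmox1, 1.40 ± 0.30) and G6pdx (1.59 ± 0.37) among the higher ones. Over immediate early and stress genes, 4 of 16 tested members were higher and 2 lower in bulk MPC, with a median log2 fold change of 0.21. Socs3, which dampens cytokine signalling, had 13.7, 53.9 and 17.5 CPM in bulk MPC, against 0.492, 2.47 and 1.07 CPM in differentiated myoblasts (4.42 ± 0.70, adjusted p = 0.000274; 3.55 without bulk MPC replicate 2 and 5.20 without differentiated replicate 2), and Egr1 did not pass (0.14 ± 0.28, adjusted p = 0.715). Over interferon-stimulated genes, 3 of 13 tested members were higher and 1 lower in bulk MPC, with a median log2 fold change of 0.45. Bst2, which tethers viruses to cells, was higher (0.87 ± 0.31) and Ifit2 lower (-0.92 ± 0.33), calls lost for Bst2 without bulk MPC replicate 1 or 3 or differentiated replicate 2 or 3 (adjusted p up to 0.129) and Ifit2 without bulk MPC replicate 1 or 2 or 3 or differentiated replicate 1 or 3 (adjusted p up to 0.0964). On these last 3 lists, 23.1% to 30% of members were higher, close to the 24.4% of all genes. When 1 library was left out, 0 to 3 interferon genes were higher, with 0 without bulk MPC replicate 3 or differentiated replicate 3.

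Counts of matrix genes changed when bulk MPC replicate 2 was left out. Over basement membrane and collagen genes, 9 of 30 tested members were higher in bulk MPC (30%, against 24.4% of all genes) and 5 lower (16.7%, against 19.4%). These shares lie near those of all genes, and the median log2 fold change was 0.48. Without bulk MPC replicate 2 there were 5 higher and 9 lower, median -0.02. The microfibrillar collagen gene Col6a2 had 5.19, 172 and 22.4 CPM in bulk MPC, against 0.0492, 0.337 and 0.562 CPM in differentiated myoblasts (7.74 ± 1.35, adjusted p = 0.000549), and its change without replicate 2 was 5.46, adjusted p = 0.000582. The basement membrane collagen gene Col15a1 had 50.8, 319 and 151 CPM in bulk MPC, against 0.0492, 0.112 and 4.67 CPM in differentiated myoblasts (6.78 ± 1.14, adjusted p = 0.000409; 6.00, adjusted p = 0.00107 without it). Without differentiated replicate 3, the one with the highest level of its group in both, Col6a2 was at 8.45 and Col15a1, then with 3 differentiated counts, at a ratio of 2212 (95% counting interval 757 to 10727), and without differentiated replicate 1 Col15a1 was at 6.18. Even the lowest bulk MPC library exceeded every differentiated library in both genes. Col3a1, of interstitial matrix, had 71.9, 662 and 126 CPM in bulk MPC, against 28.3, 89.2 and 69.6 CPM in differentiated myoblasts (2.20 ± 0.65, adjusted p = 0.0142) and did not pass without replicate 2 (0.67, adjusted p = 0.191) or without differentiated replicate 1 (1.85, adjusted p = 0.0591). The list had 3 lower members without bulk MPC replicate 1 or differentiated replicate 3. Perlecan (Hspg2, -0.81 ± 0.16) and osteonectin (Sparc), at 265 against 722 CPM in bulk MPC and differentiated myoblasts (-1.44 ± 0.30), were lower.

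Markers of other cell types were checked because neither culture was sorted. Fibroblast and fibro-adipogenic markers summed to 94.6 to 416 TPM in bulk MPC, with replicate 2 the highest, and to 123 to 161 TPM in differentiated myoblasts. Of 9 tested, 3 were higher and 0 lower, DESeq2 called 1 as higher, and without replicate 2 there were 1 higher and 1 lower, median -0.56. Of the 6 that did not pass, 2 had estimates above 0, and the lowest estimate on the list was -4.13. Gsn, among those of highest TPM, overlapped between the groups. It had 151, 135 and 243 CPM in bulk MPC, against 184, 208 and 168 CPM in differentiated myoblasts. Thy1 had 2.48, 39.8 and 3.23 CPM in bulk MPC, against 0.345, 0.393 and 0.169 CPM in differentiated myoblasts (5.62 ± 1.04, adjusted p = 0.00081). Without bulk MPC replicate 2, Thy1 was at 3.21, adjusted p = 0.00018.

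Pericyte and smooth muscle markers summed to 182 to 283 TPM in bulk MPC and 957 to 1136 TPM in differentiated myoblasts. Of 9 tested, 3 were higher and 1 lower. The lower one was Acta2, at 149 ± 35.5 TPM in bulk MPC and 952 ± 94.7 TPM in differentiated myoblasts, the higher ones were the PDGF receptor gene Pdgfrb (4.47 ± 1.06; 2.71 without bulk MPC replicate 2 and 5.34 without differentiated replicate 3), the adhesion gene Mcam (1.58 ± 0.25) and the potassium channel gene Kcnj8, with 77 counts in bulk MPC and 0 in differentiated myoblasts (at least 24.6-fold higher with the group at 0 set to 3 counts). Only 8 counts of Kcnj8 remained without bulk MPC replicate 2 (at least 3.98-fold higher), and the bound was 3.98 to 37.3 over the single omissions. Endothelial markers summed to 2.84 to 4.52 TPM in bulk MPC and 3.82 to 4.14 TPM in differentiated myoblasts, with Kdr at 0 counts in all 6 libraries. Macrophage and leukocyte markers summed to 3.62 to 3.88 TPM in bulk MPC and 3.47 to 4.46 TPM in differentiated myoblasts, with C1qa and C1qb at 0 in all 6.

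Schwann cell markers summed to 52.4 to 83.9 TPM in bulk MPC and 122 to 135 TPM in differentiated myoblasts, and of 5 tested 2 were higher and 1, Erbb3, lower. Tenocyte markers summed to 28.3 to 30.2 TPM in bulk MPC and 94.8 to 107 TPM in differentiated myoblasts, with Scx lower (-1.78 ± 0.20), Thbs4 higher (5.95 ± 0.92; 5.36 without bulk MPC replicate 2 and 6.55 without differentiated replicate 2) and Fmod at 0 in all 6 libraries. Adipocyte markers summed to 33.8 to 69.1 TPM in bulk MPC and 6.05 to 6.98 TPM in differentiated myoblasts. Lipoprotein lipase (Lpl) was the one that passed, at 130.1 ± 39.8 CPM in bulk MPC and 9.22 ± 0.0571 CPM in differentiated myoblasts (3.82 ± 0.27, adjusted p = 6.45e-07), while Adipoq, Plin1, Cidec and Fabp4 were too low to test. The part of other cell types in the gene lists was not tested.

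In 9 lists edgeR called 0 members in at least 1 direction. At an unadjusted p under 0.05 these gave 0 as well, except Maml2, named after its values were seen, as lower on the Notch list and Tek as higher on the endothelial list, and DESeq2 called 0 except 1 lower member on the Notch list.

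The widest changes were near on or off among protein-coding genes that averaged 10 CPM or more in 1 of the cultures, the limit for the genes that follow. Neuronatin (Nnat), an imprinted membrane protein gene, had 31.8, 7.91 and 10.9 CPM in bulk MPC, against 0, 0 and 0 CPM in differentiated myoblasts, at least 326-fold higher when the group at 0 is set to 3 counts, a bound of 171 to 425 with 1 library left out, lowest without bulk MPC replicate 1. The metalloprotease gene Adamts15 had 1156 counts in bulk MPC against 1 count in differentiated myoblasts, a ratio of 1107 (95% counting interval 198 to 43779.8), of 704 to 1454 in single omissions, lowest without bulk MPC replicate 2, and at least 252-fold higher without differentiated replicate 3. Endothelin 3 (Edn3) had 48.1, 46.6 and 49.0 CPM in bulk MPC, against 0.295, 0.112 and 0.169 CPM in differentiated myoblasts (7.89 ± 0.21, adjusted p = 1.1e-10). The bulk MPC libraries were nearly equal. Others among the 12 largest rises of these genes were the heparan sulfate proteoglycan gene Gpc3 (9.01 ± 0.60), carbonic anhydrase 9 (Car9, 8.04 ± 1.40), Lingo3 (6.83 ± 0.62), the amino acid transporter gene Slc38a4 (6.80 ± 1.08) and Glipr1 (6.40 ± 1.30; 5.07 without bulk MPC replicate 1), beside the mitochondrial protein gene Ndufa4l2, with 1527 counts in bulk MPC against 2 in differentiated myoblasts, and Dlk1, Col6a2 and Col15a1. Without differentiated replicate 1, Gpc3 had 2 counts in the differentiated group and a ratio of 877 (95% counting interval 242 to 7241).

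Among the 12 largest falls under the same limit, Adamtsl2, a secreted matrix protein gene, had 1.45, 0.479 and 0.994 CPM in bulk MPC, against 148, 159 and 179.5 CPM in differentiated myoblasts (-7.37 ± 0.45, adjusted p = 3.2e-07). The FGF-binding protein gene Fgfbp1 had 2 counts in bulk MPC against 2435 in differentiated myoblasts, a ratio of 1271 (95% counting interval 351 to 10499.8), and without bulk MPC replicate 1 it was at least 537-fold lower in bulk MPC. Wwc1, a regulator of the Hippo pathway, had 2 counts in bulk MPC against 1733 in differentiated myoblasts, a ratio of 904 (250.01 to 7474), of 573 to 967 in single omissions, lowest without bulk MPC replicate 1, and at least 387-fold lower without bulk MPC replicate 2. These intervals cover counting error only. The adenylyl cyclase gene Adcy8 had 0.0935, 0 and 0.124 CPM in bulk MPC, against 44.96, 30.6 and 29.1 CPM in differentiated myoblasts (-8.88 ± 0.67, adjusted p = 1.06e-06), and it was near 0 in every bulk MPC library. The adhesion receptor gene Adgrg1 (-6.63 ± 0.27), the kinase gene Ptk2b (-6.62 ± 0.69), the potassium channel partner gene Dpp6 (-8.88 ± 0.45), Srpx2 (-6.67 ± 0.60) and Aff2 (-6.57 ± 0.46) were lower too. Without bulk MPC replicate 2, the estimates were -8.28 for Adcy8 and -7.37 for Aff2, Ptk2b had 3 bulk MPC counts and a ratio of 175 (95% counting interval 59.5 to 848) of differentiated myoblasts over bulk MPC, and Srpx2 had 0 bulk MPC counts and was at least 391-fold lower. Without replicate 1, Srpx2 was at -6.04. Gabrb2, a GABA receptor subunit gene, had 2 counts in bulk MPC and 775 in differentiated myoblasts. Rpl10-ps3 also met the rule, but its name marks a copy of a ribosomal protein gene, and reads that fit several copies make its value uncertain; its call was lost without bulk MPC replicate 1 or 2 or 3 or differentiated replicate 3 (adjusted p up to 0.0899).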

How the data were processed

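Poly(A) RNA was made into stranded libraries and sequenced with single-end reads, per the labels' protocols. The authors deposited estimated counts and TPM (abundance per transcript, scaled by effective length and library total) for each transcript, as made with kallisto 0.46.1 after fastp 0.20.0 on GRCm39, per the submitters' processing notes. The transcript annotation release is not given in the sources used here.

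Estimated counts of 120739 of 121798 transcripts were summed over 35613 GENCODE M21 genes and rounded, and 1059 transcripts without a match were left out (0.890% to 1.05% of the counts of the 6 libraries). The 15 libraries of the 5 replicated groups were fitted with edgeR 4.0.16 (R 4.3.3; TMM factors, filterByExpr with a minimum count of 10 and a minimum total of 15, quasi-likelihood F test, Benjamini-Hochberg over 15533 genes), leaving 10 residual degrees of freedom. The standard error is the log2 fold change divided by the square root of F. The spread behind it and the intervals was estimated over all 5 groups, sorted ones included, not over the 6 libraries alone. The fit was also run on simulated counts drawn with the same spread for every gene, unlike these data, and no result here rests on that run. Kallisto shares reads among near-identical copies, so values of such genes are uncertain. The labels call the replicates biological but do not say that they came from separate animals, so p-values measure only the spread between these samples.

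Shares of TPM were compared with exact two-sided permutation tests. Alternatives were DESeq2 1.42.0, upper-quartile factors, other count filters, fewer libraries, a replicate block, length-scaled counts and single libraries left out.

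Genes named are the 9 fixed ones, per list up to 4 with the largest change in the majority direction, up to 2 against it, the 2 of highest TPM and those not called where 5 or fewer, the genes of isoform families, the 12 largest rises and falls of protein-coding genes averaging 10 CPM or more in either culture, and the 5 of highest TPM with an interval within -0.5 and 0.5. Some genes that meet the rule are not reported here. Members, lists and rules were chosen with earlier results of these data known. Promoter letters come from RefSeq (GRCm38.p6). Counting intervals are exact at 95% and cover counting error only.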

Additional observations from a re-analysis of the deposited data

How the results depend on the processing

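Among 2975 checks of named genes, 2823 kept their direction and their side of the threshold, 109 lost the call, 33 gained it and 10 changed sign. The number of genes called stayed within 1.5 times in all 14 alternatives, from 2976 to 3944 higher and from 2495 to 3830 lower, and the share of calls that were higher was 49.7% to 57.8%. Leaving out 1 library gave 2976 to 3394 higher and 2495 to 2690 lower. Of sarcomere structure genes, 11 were lower with only the 6 libraries and 7 with only the 9 unsorted libraries, and 1 to 4 were higher with 1 library left out. In single omissions, 9 to 15 oxidative phosphorylation genes, 5 to 8 Notch genes and 5 to 12 basement membrane and collagen genes were higher, and 3 to 9 of the last list were lower; the cause was not tested. Gnas was lower with length-scaled counts (-0.29). Genes near 0 changed sign. Hspa8 was at -0.0311 with 6 libraries, -0.0195 with 9, and -0.0005993 to 0.0608 in single omissions. Utrn was at 0.0251 with length-scaled counts and -0.11 to 0.067 in single omissions, Musk at -0.24 to 0.14 and Myog at -0.16 to 0.0156. With the replicate block, 3638 genes were higher and 2940 lower. Same-numbered libraries of the cultures correlated at -0.0179 to 0.209 in their deviations, against -0.256 to 0.134 for other pairs, and bulk MPC and bulk myoblasts of the same number at 0.131 to 0.163. Library names of 1 number start alike, but the labels do not say what that marks, so the numbers were not treated as pairing; the block ended the calls of Axin2 (-0.68, adjusted p = 0.0501), Mybpc1 (0.89, adjusted p = 0.0568) and Tnnt2 (-0.87, adjusted p = 0.0624). All 19 shares kept their direction as shares of estimated counts. With 3 libraries a group, the exact test of shares cannot pass.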

Other observations

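Genes that cells raise when oxygen is low were picked after the values of the glycolysis list, Car9 and Ndufa4l2 had been seen, so their values are a description with no test. Of 22 such genes, 22 of 22 with a fit had a log2 fold change above 0, with a median of 2.65 against 0.07 over all tested genes. Car9, which encodes a cell surface carbonic anhydrase, had 42.2, 49.9 and 24.9 CPM in bulk MPC, against 0.197, 0 and 0.225 CPM in differentiated myoblasts. The peptide hormone gene Adm had 40.5, 38.2 and 29.1 CPM in bulk MPC, against 0.394, 0.618 and 0.506 CPM in differentiated myoblasts. The bulk MPC libraries of both genes lay above every differentiated library. Pdk1, whose kinase keeps pyruvate out of the mitochondria, had 377, 292 and 242 CPM in bulk MPC, against 57.7, 51.4 and 48.1 CPM in differentiated myoblasts, and the mitophagy receptor gene Bnip3 had 784, 516 and 484 CPM in bulk MPC, against 68.5, 58.5 and 49.5 CPM in differentiated myoblasts. The log2 fold changes were 8.04 ± 1.40 for Car9, 6.14 ± 0.29 for Adm, 2.54 ± 0.43 for Pdk1 and 3.34 ± 0.42 for Bnip3. The labels give no oxygen level, and its part in these values was not tested.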
